A study of Mus musculus with 154 samples.

Results

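The conjugating enzymes of the glutathione S-transferase (Gst), UDP-glucuronosyltransferase (Ugt) and sulfotransferase (Sult) families were described in liver RNA of chromosome substitution strains (CSSs) of the mouse. All protein-coding genes whose GENCODE symbol starts with Gsta, Gstk, Gstm, Gsto, Gstp, Gstt, Gstz, Ugt1, Ugt2, Ugt3 or Sult were taken. The annotation holds 64 such genes, and 45 of them are among the 13289 genes of the count table. These are 18 Gst genes, 19 Ugt genes (9 of the Ugt1 locus, 8 Ugt2 and 2 Ugt3) and 8 Sult genes. The other 19, among them Gsta1, Gstp2, Ugt2a1, Ugt2a2, Sult3a1 and the genes Sult2a1 to Sult2a6, were not analysed here. Genes of the table were taken by symbol, with earlier results of these data known. The authors had removed genes with low counts from the table, so expression bears on which genes are in it. Why each of the other 19 is absent was not examined.

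The mice carried the C57BL/6J genome (B6) except for 1 or 2 chromosomes, of which 1 copy came from strain A/J. The control strain B6 (n = 20) was compared with 8 single CSSs, in which chromosome 3, 4, 5, 6, 8, 10, 14 or 17 was heterozygous A/J, and with 15 double CSSs that were heterozygous A/J for a pair of these chromosomes. The single CSSs are named with the dam first. Dams of B6.A3, of B6.A6, of B6.A14 or of B6.A17 were mated to B6 sires, as in (B6.A3 x B6)F1, and B6 dams to sires of B6.A4, B6.A5, B6.A8 and B6.A10, as in (B6 x B6.A8)F1, with 8 mice each except 7 for chromosome 5. The double CSSs were crosses of A3, A6, A14 or A17 dams with A4, A5, A8 or A10 sires and had 3 to 6 mice each. All mice were 5 weeks old, were listed as male and were fasted overnight before the liver was taken. A main effect, written A8 for chromosome 8, is the log2 difference of a single CSS from B6. An interaction, written A14:A8, is the log2 distance of the double CSS above or below the level that adding its main effects to B6 gives. Both were estimated in a model adjusted for 5 surrogate variables, which stand for unmeasured variation between mice. The levels printed for mice are not adjusted for them, so a log2 fold change can differ from the difference between these levels. The substituted chromosome is a whole A/J chromosome, so an effect cannot be placed within it.

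Conjugating enzymes join a polar group to a drug, hormone, bile pigment or reactive product of metabolism, which makes it more soluble and easier to excrete in bile or urine. Gst enzymes add glutathione to electrophilic compounds, Ugt enzymes transfer glucuronic acid from UDP-glucuronic acid, and Sult enzymes transfer a sulfonate group from the donor PAPS to phenols, steroids and amines. The liver is the main site of all of these reactions, and the genes of each family lie in clusters that arose by duplication.

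The total count per mouse was between 4638701 and 30465477. All 8 hepatocyte markers and all 6 Kupffer cell markers on the lists were in the table, and no pancreatic acinar marker (0 of 5) and no adipocyte marker (0 of 2) was. The mouse of (B6.A14 x B6.A4)F1 called replicate 3 had a summed level of 4 Y-linked genes of 2.94 CPM (reads of a gene scaled to a common library size, as described under the processing), against at least 227.5 CPM in every other mouse, which goes against its listing as male. It was kept as labelled, and for some of the results that use it the outcome without it is given too. Counts and strain means include it unless stated otherwise. The mice of each cross came from several breeding cages by the study's methods, but no label ties a mouse to a cage or litter, and p-values measure the spread between these mice.

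Sequences upstream of these genes were taken from RefSeq (GRCm38.p6, the same assembly as mm10), with 250 bases before and 50 after the start site of each gene, and 40 of the 45 genes had an entry. Each was searched on both strands for GTTAAT, a half-site of the liver factor HNF1, and for TGACNNNGC, the core of the antioxidant response element that NRF2 binds. The half-site was present in 9 of the 40 promoters (22.5%), against 7.10% of all 32851 promoters in the table, and it was in 4 of 8 promoters of the Ugt1 locus, in 1 of 8 of Ugt2 and in 1 of 16 of Gst. The antioxidant core was in 2 of 40 (5%) of these promoters and in 12.4% of all promoters. A match of letters is a description of the window and shows no binding. Of the promoters printed here, those of Ugt1a1, Ugt2a3 and Gsta3 have the matches in capitals, and those of Ugt2b5 and Ugt2b36, the 2 most abundant Ugt genes per length, have in capitals the 24 bases that form the longest run they share. That run begins 28 bases before the start site of Ugt2b5 and 31 bases before that of Ugt2b36, and Ugt2b37 is the 1 further gene whose promoter holds it.
Ugt1a1 (chr1:88211709-88212008, plus strand): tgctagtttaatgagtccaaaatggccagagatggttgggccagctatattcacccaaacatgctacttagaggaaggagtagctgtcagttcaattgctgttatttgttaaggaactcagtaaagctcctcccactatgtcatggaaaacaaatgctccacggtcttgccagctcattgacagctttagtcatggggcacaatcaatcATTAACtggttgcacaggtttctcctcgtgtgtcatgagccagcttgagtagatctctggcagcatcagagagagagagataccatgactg
Ugt2a3 (chr5:87337146-87337445, minus strand): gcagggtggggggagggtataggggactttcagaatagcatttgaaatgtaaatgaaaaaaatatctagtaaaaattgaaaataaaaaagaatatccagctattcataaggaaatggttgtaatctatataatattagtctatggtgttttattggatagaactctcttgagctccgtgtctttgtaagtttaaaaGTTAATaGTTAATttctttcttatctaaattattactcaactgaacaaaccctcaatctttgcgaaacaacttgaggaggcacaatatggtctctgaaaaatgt
Gsta3 (chr1:21240335-21240634, plus strand): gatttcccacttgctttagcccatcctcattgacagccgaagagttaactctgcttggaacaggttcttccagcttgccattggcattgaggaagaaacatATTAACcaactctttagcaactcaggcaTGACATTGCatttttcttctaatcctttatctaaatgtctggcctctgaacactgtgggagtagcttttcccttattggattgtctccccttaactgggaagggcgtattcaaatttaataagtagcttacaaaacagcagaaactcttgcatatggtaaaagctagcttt
Ugt2b5 (chr5:87140291-87140590, minus strand): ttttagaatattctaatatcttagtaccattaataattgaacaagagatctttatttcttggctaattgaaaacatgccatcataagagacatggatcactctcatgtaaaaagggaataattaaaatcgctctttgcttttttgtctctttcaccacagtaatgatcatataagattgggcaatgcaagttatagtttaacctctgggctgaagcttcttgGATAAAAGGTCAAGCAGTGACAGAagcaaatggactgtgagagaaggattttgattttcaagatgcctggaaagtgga
Ugt2b36 (chr5:87092506-87092805, minus strand): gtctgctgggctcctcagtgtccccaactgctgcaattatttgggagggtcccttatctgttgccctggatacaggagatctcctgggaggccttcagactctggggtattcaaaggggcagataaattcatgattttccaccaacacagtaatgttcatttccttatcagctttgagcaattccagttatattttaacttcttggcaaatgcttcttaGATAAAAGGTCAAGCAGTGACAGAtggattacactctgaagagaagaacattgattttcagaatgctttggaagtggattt
Of these 5 promoters, that of Gsta3 held both motifs, and that of Ugt2a3 held the half-site at 2 places.

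Copies of a gene can share reads, and reads of 50 bases were counted. For Gsta3, Gstm7, Gstz1, Ugt2b1, Sult2a8 and Sult1e1, 100% of the 50-base windows of the longest protein-coding transcript (GENCODE vM21) occurred in no transcript of another gene. This share was 99.7% for Ugt2b36, 76.9% for Gstm1, 62.6% for Ugt2b38, 58.3% for Ugt2b5 and 37.7% for Gstp1, which shares its other windows with Gstp2. The genes of the Ugt1 locus on chromosome 1 each have a first exon of their own and share the remaining exons, and between 0% (Ugt1a6a) and 41.8% (Ugt1a1) of their windows were unique. Counts of Ugt1a6a, Ugt1a6b, Ugt2b5, Ugt2b38 and Gstp1 are therefore uncertain in the share that belongs to a near-identical copy. Whether the counting used strand is not given in the sources used here.

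In B6, the level per length, in CPM per kilobase of exon sequence that no other gene on the same strand shares, ran from 0.928 ± 0.435 (SD, n = 20) for Ugt1a10 to 285.4 ± 54.2 for Sult1a1. Sult1a1, a phenol sulfotransferase, was followed within its family by Sult2a8, a hydroxysteroid sulfotransferase, with 222 ± 60.9 and by Sult1d1, a catecholamine sulfotransferase, with 184 ± 58.7 CPM per kilobase. The highest Ugt genes were Ugt2b5 with 282 ± 87.7, Ugt2b36 with 259 ± 66.1 and Ugt2b1 with 254 ± 83.3 CPM per kilobase, and these 3 levels differed by less than their spread. Ugt1a1, the enzyme that conjugates bilirubin, followed with 189 ± 32.5 CPM per kilobase. Among Gst genes, Gstm1 had 206 ± 49.0, Gstp1 had 117.2 ± 46.6 and Gstz1, the maleylacetoacetate isomerase of tyrosine breakdown, had 110 ± 7.81 CPM per kilobase. Gstp1 and Gstz1 were within 1 SD of each other. The spread between B6 mice also differed by gene, since the SD of log2 CPM was 0.10 for Gstz1 and 1.42 for Sult1e1, the estrogen sulfotransferase, whose level ran from 0.667 to 48.7 CPM in mice of the same genotype.

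**Figure D1:**
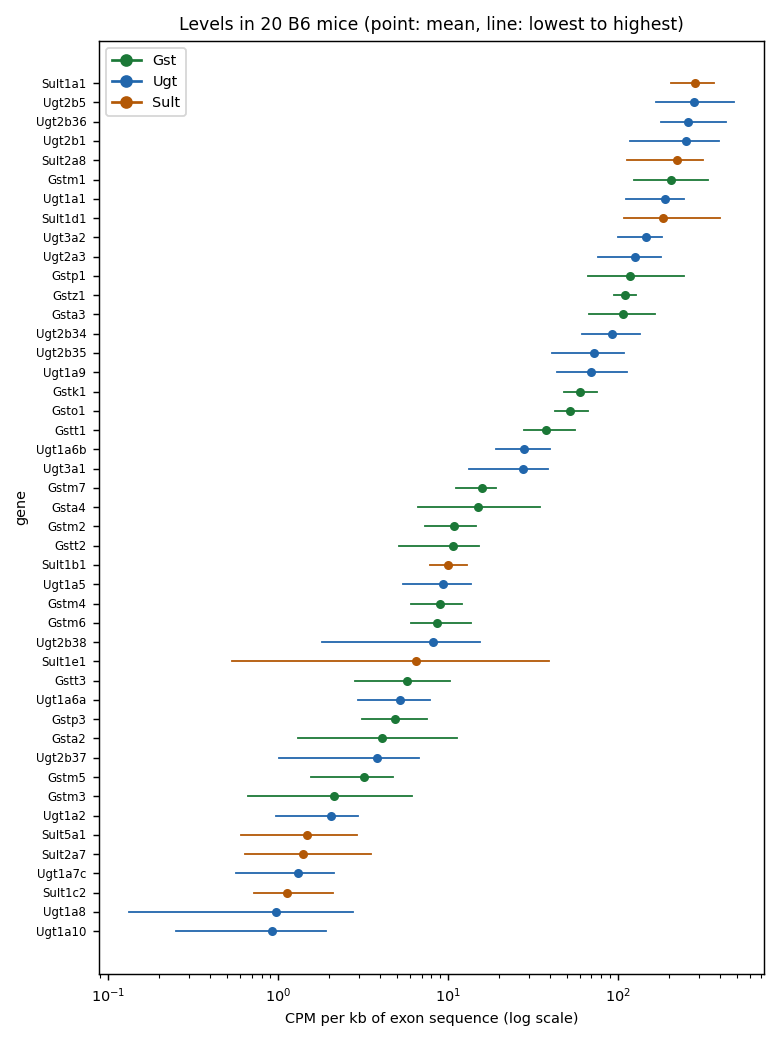
Level of each of the 45 genes in B6 as CPM per kilobase of unshared exon sequence on a log axis, with the mean over 20 mice as a point and the range from lowest to highest mouse as a line, coloured by family. Sult1a1, Ugt2b5 and Ugt2b36 stand at the top, Ugt1a10 and Ugt1a8 at the bottom, and Sult1e1 has the widest range.

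The first question was how many of these genes differed between strains at all. In the joint test of the 23 strain coefficients (edgeR's quasi-likelihood test, false discovery rate (FDR) of 0.05), 37 of the 45 genes were under genetic control, against 51.4% of all genes tested. In the joint test of the 15 interactions, 25 of the 45 were called, against 27.4% of all genes. Among the single effects, 68 of 360 combinations of a gene and a substitution were called, against 11.1% of the combinations over all genes, and 31 of the 45 genes had at least 1 of them. Of the 68, 50 were higher than in B6 (background 5.32%) and 18 lower (background 5.74%). Gsta2, Gstm2, Gstp3, Sult2a7 and Ugt1a6a had neither a main effect nor an interaction past the threshold. All main effects share the 20 B6 mice, so they are set side by side and no overlap between them is tested.

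**Figure D2:**
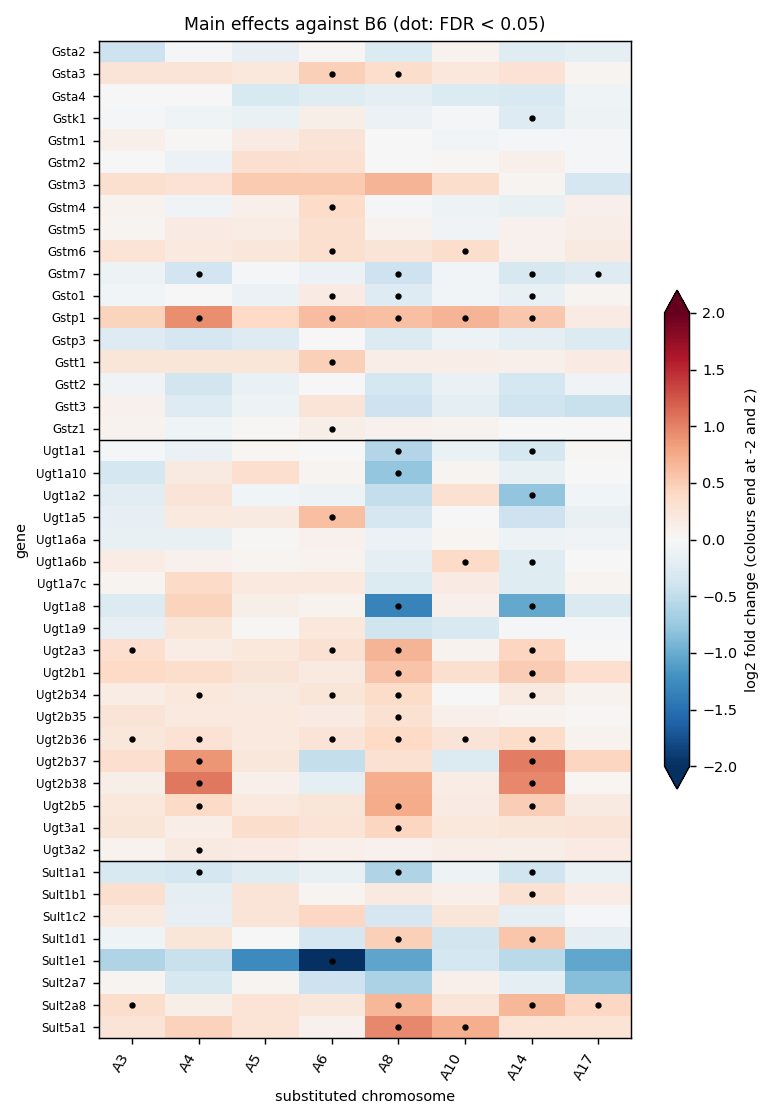
Log2 fold change of each of the 45 genes (rows, in the order Gst, Ugt and Sult) in the 8 single CSSs against B6 (columns), with red for higher, blue for lower (colours end at -2 and 2) and a dot where the FDR was below 0.05. The Ugt2 rows are red in A8 and A14, the Ugt1 rows Ugt1a1 and Ugt1a8 are blue there, and the darkest blue cell is Sult1e1 in A6.

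Local effects are those of a substituted chromosome on the genes that it carries. Of the 45 genes, 24 lie on a substituted chromosome, and in 1 of these 24 local combinations was the difference past the threshold. That gene was Sult5a1 on chromosome 8 (chr8:123140192-123158315, minus strand, mm10), a sulfotransferase expressed at a low level in liver. It was called in A8, where 1 of 1 local gene changed, against 34.4% of all genes on chromosome 8. None of the 7 Gstm genes on chromosome 3 was called in A3 (background 11.9%, 1 of 7 with an unadjusted p below 0.05) and none of the 11 Ugt2 and Sult1 genes on chromosome 5 in A5 (background 7.72%, 7 of 11). Gstk1 in A6 (background 13.9%, 1 of 1 with an unadjusted p below 0.05), 3 Gstt genes in A10 (background 11.6%, 0 of 3) and Sult1c2 in A17 (background 17.1%, 0 of 1) were not called either. These backgrounds are shares at an FDR of 0.05 and are not a background for the counts by unadjusted p. Whether 1 call in 24 differs from these shares was not tested. The local difference nearest to the threshold was Gstm6 in A3, with a log2 fold change of 0.27 (SE 0.10, adjusted p = 0.0514, edgeR). On chromosome 5, Sult1e1 had a log2 fold change of -1.28 in A5 (SE 0.45, adjusted p = 0.0687), and Ugt2b36 one of 0.19 (SE 0.07, adjusted p = 0.0915). DESeq2's Wald test also called 1 local combination, while the 75% count filter called 4 and the model with 10 surrogate variables called 3.

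Sult5a1 was measured at 2.69 CPM in the lowest, 6.35 in the median and 12.96 in the highest B6 mouse. In A8 these values were 6.48, 9.10 and 16.4 CPM, so all 8 mice lay above the B6 median and 1 lay above every B6 mouse. In A8 it was higher by a log2 fold change of 0.97 (SE 0.20, adjusted p = 3.05e-05), and it was 0.63 without surrogate variables, still past the threshold. Of the 4 double CSSs that carry the A/J chromosome 8, the 3 mice of (B6.A3 x B6.A8)F1 had 9.61, 19.3 and 19.6 CPM and the 6 mice of (B6.A6 x B6.A8)F1 had between 10.2 and 19.9 CPM. Against B6, the log2 difference was 1.24 (SE 0.24) in (B6.A3 x B6.A8)F1, 1.17 (SE 0.20) in (B6.A6 x B6.A8)F1, 0.93 (SE 0.21) in (B6.A14 x B6.A8)F1 and 0.95 (SE 0.21) in (B6.A17 x B6.A8)F1. The difference was not particular to chromosome 8, since the mean log2 CPM of Sult5a1 lay above that of B6 in 17 of the 18 CSSs without the A/J chromosome 8 as well as in the 5 with it. Among those without it, (B6.A17 x B6.A4)F1 had a mean of 11.7 ± 2.24 CPM (SD, n = 4) and (B6.A6 x B6.A4)F1 one of 11.1 ± 2.76 CPM (n = 5), as high as the 11.7 ± 2.51 CPM of (B6.A14 x B6.A8)F1 (n = 5). None of the 4 interactions of A8 with A3, A6, A14 or A17 was called for Sult5a1, and they lay between -0.31 and 0.12 on the log2 scale. Chromosome 10 had a distant effect on Sult5a1, with 6.96 CPM in the lowest, 9.63 in the median and 12.2 in the highest A10 mouse, a log2 fold change of 0.72 (SE 0.19, adjusted p = 0.00977).

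In A8, 18 of the 45 genes were called, against 29.6% of all genes, with 12 higher (background 12.9%) and 6 lower (background 16.7%). In A14, 19 were called, against 22.5% of all genes, with 11 higher (background 9.98%) and 8 lower (background 12.6%). The called genes of the 2 Ugt loci lay on opposite sides of B6. In A8, 6 of the 8 Ugt2 genes were higher and none lower, and 3 of the 9 Ugt1 genes were lower and none higher. In A14, 7 of the 8 Ugt2 genes were higher and 4 of the 9 Ugt1 genes were lower. The Ugt1 log2 fold changes lay between -1.33 and -0.11 in A8 and between -1.02 and -0.04 in A14. Ugt1a9, with a mean of 61.0 CPM in B6, was called in neither strain. The Ugt1 genes form 1 locus with shared exons and are not 9 independent genes. Both loci lie off chromosomes 8 and 14, so each of these effects is distant. In bulk tissue, fewer cells of a type and less RNA per cell cannot be told apart. Hepatocyte markers moved in these strains too, with 7 of 8 lower in A8 and 6 of 8 lower in A14, and their summed level was between 94035 and 153167 CPM in B6, between 50431 and 103596 in A8 and between 55905 and 121805 in A14. Their part in the results was not tested.

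Ugt2b5, a glucuronosyltransferase of the cluster on chromosome 5 (chr5:87124960-87140318, minus strand, mm10), had 313.7 CPM in the lowest, 489.8 in the median and 899 in the highest B6 mouse. In A8 it had 644, 762 and 1005 CPM, with all 8 mice above the B6 median and 3 above every B6 mouse, and the log2 fold change was 0.75 (SE 0.10, adjusted p = 2.22e-09). In A14 it had 443, 596.6 and 831 CPM, with 6 of 8 mice above the B6 median and a log2 fold change of 0.49 (SE 0.09, adjusted p = 2.49e-05). Ugt2a3, which lies in the same cluster, rose by 0.68 in A8 (SE 0.10, adjusted p = 6.39e-08), from 162.9, 270.6 and 378.99 CPM in the lowest, median and highest B6 mouse to 315, 381 and 505 CPM. Ugt2b1 had a log2 fold change of 0.58 in A8 (SE 0.15) and of 0.51 in A14 (SE 0.14). The scarcer Ugt2b37 and Ugt2b38 were the Ugt2 genes with the largest changes in A14, by 1.03 (SE 0.31, adjusted p = 0.0107) and 0.96 (SE 0.28, adjusted p = 0.00757). Their mice overlapped widely with B6, since Ugt2b38 had 8.84 CPM in the lowest, 23.2 in the median and 47.1 in the highest A14 mouse, against 3.42, 15.6 and 29.3 CPM in B6. The calls of Ugt2b5, Ugt2b1, Ugt2b38 and Ugt2b36 in A14 were lost without surrogate variables, and those of Ugt2b1 and Ugt2b36 in A8 and of Ugt2b1 and Ugt2b38 in A14 with 10 of them.

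Ugt1a1 (chr1:88211959-88218997, plus strand, mm10), whose loss causes unconjugated hyperbilirubinemia, had 102 CPM in the lowest, 178 in the median and 224.1 in the highest B6 mouse. In A8 it had 78.2, 93.6 and 130.97 CPM, and 5 of the 8 mice lay below every B6 mouse. The log2 fold change was -0.59 in A8 (SE 0.11, adjusted p = 4.57e-06) and -0.35 in A14 (SE 0.10, adjusted p = 0.00514), where 2 of 8 mice lay above the B6 median. Ugt1a8 and Ugt1a10, whose B6 medians were 0.737 and 0.757 CPM, were the other Ugt1 genes called lower in A8, and Ugt1a8, Ugt1a2 and Ugt1a6b were those in A14. With 10 surrogate variables Ugt1a1 had a log2 fold change of -0.31 in A8 and of -0.11 in A14 and was called in neither.

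Ugt2 genes were also higher in other single CSSs. In A4, 9 of the 45 genes were called, against 13.5% of all genes, with 7 higher (background 7.60%) and 2 lower (background 5.88%). Of the 8 Ugt2 genes, 5 were higher in A4. Ugt2b38 had 14.2 CPM in the lowest, 23.8 in the median and 47.5 in the highest A4 mouse, a log2 fold change of 1.05 (SE 0.28, adjusted p = 0.00479), and Ugt2b37 had one of 0.88 (SE 0.31, adjusted p = 0.0402). In A3, 3 genes were called, against 3.70% of all genes, and these were Sult2a8 with 0.35 (SE 0.10), Ugt2a3 with 0.33 (SE 0.09) and Ugt2b36 with 0.23 (SE 0.07) on the log2 scale. In A10, 5 genes were called, against 6.64% of all genes, and in A17, 2 were called, against 3.67%. In A5, edgeR called none of the 45, against 0.768% of all genes, and DESeq2's Wald test called 0 as well. Of the 45, 18 had an unadjusted p below 0.05, a threshold for which the share over all genes is not given here. Ugt2b36 was called in 6 of the 8 substitutions, more than any other of the 45 genes, with log2 fold changes between 0.23 and 0.40. Each of these 6 calls was lost with 0 or with 10 surrogate variables, and those in A3 and A4 with either. Its value in A6 was 0.10 with 10 surrogate variables, and in A10 it turned from 0.25 to -0.04 without any. The calls of Ugt2b38 and Ugt2b37 in A4 were lost with 10 surrogate variables. That of Ugt2b37 was also lost with none, with the 75% count filter, in DESeq2's Wald test and without the mouse lacking Y-linked counts. All 3 calls in A3 were lost with none, and those of Sult2a8 and Ugt2b36 also with the 75% count filter.

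Ugt3 genes, whose products use other UDP sugars, changed little. Ugt3a1 was higher in A8 by 0.43 (SE 0.12, adjusted p = 0.00250) and Ugt3a2 was higher in A4 by 0.19 (SE 0.06, adjusted p = 0.0367) on the log2 scale. Both calls were lost without surrogate variables, and that of Ugt3a2 also with 10 of them and with the 75% count filter.

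Among the Gst genes, Gstp1 was called most often. This pi-class enzyme (chr19:4035407-4037985, minus strand, mm10) was higher in A4, A6, A8, A10 and A14. It had 103.1 CPM in the lowest, 161 in the median and 379.7 in the highest B6 mouse, against 192, 305 and 487 CPM in A4 and 238, 292 and 337 CPM in A6. All 8 mice of A4 and all 8 of A6 were above the B6 median, while the ranges overlapped. The log2 fold change was 0.93 in A4 (SE 0.18, adjusted p = 9.11e-05), 0.62 in A6 (SE 0.17, adjusted p = 0.0140), 0.68 in A10 (SE 0.18, adjusted p = 0.0126), 0.60 in A8 (SE 0.19, adjusted p = 0.0116) and 0.54 in A14 (SE 0.18, adjusted p = 0.0204). The calls in A4, A6, A8 and A14 were lost with 10 surrogate variables, and those in A8, A10 and A14 with none.

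Gstm7, a mu-class enzyme of the cluster on chromosome 3, was lower in 4 substitutions, none of them its own chromosome. It had 17.8 CPM in the lowest, 25.3 in the median and 30.7 in the highest B6 mouse, and 15.1, 17.49 and 23.02 CPM in A8, where 6 of 8 mice lay below every B6 mouse. The log2 fold change was -0.42 in A8 (SE 0.07, adjusted p = 4.23e-06), -0.38 in A4 (SE 0.07), -0.32 in A14 (SE 0.07) and -0.26 in A17 (SE 0.07, adjusted p = 0.0248). The other 6 Gstm genes were not lower in any of these 4 strains at this threshold. Gsto1, an omega-class enzyme that reduces dehydroascorbate, was lower in A8 by -0.26 (SE 0.06, adjusted p = 0.00055) and in A14. The call of Gstm7 in A17 was lost both without surrogate variables and with 10, and those in A4, A8 and A14 held in every alternative run.

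A6 was the substitution with the most Gst calls. In A6, 12 of the 45 genes were called, against 8.09% of all genes, with 11 higher (background 4.30%) and 1 lower (background 3.79%), and 7 of the 11 higher were Gst genes. Gsta3, an alpha-class enzyme that detoxifies aflatoxin in mice, had 292 CPM in the lowest, 458 in the median and 719.5 in the highest B6 mouse, and 472.3, 673 and 1008 CPM in A6, where all 8 mice were above the B6 median. Gsta3 had a log2 fold change of 0.47 in A6 (SE 0.11, adjusted p = 0.00246) and 0.36 in A8 (SE 0.12, adjusted p = 0.0173). Gstt1, a theta-class enzyme that conjugates small halogenated compounds, rose by 0.47 in A6 (SE 0.10, adjusted p = 0.00109), and Gstz1 by 0.12 (SE 0.04, adjusted p = 0.0470). Ugt1a5 was the 1 Ugt1 gene called in A6, with 8.84 CPM in the lowest, 10.9 in the median and 15.5 in the highest mouse and a log2 fold change of 0.60 (SE 0.17, adjusted p = 0.0151). The call of Gstt1 in A6 held in every alternative, whereas those of Gsta3 in A6 and A8 were lost with 10 surrogate variables and those of Gsta3 in A8, Ugt1a5 and Gstz1 with none. That of Gstz1 was also lost with the 75% count filter.

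Sult1e1 (chr5:87575969-87591594, minus strand, mm10) was the 1 gene called lower in A6. It had 0.667 CPM in the lowest, 4.63 in the median and 48.7 in the highest B6 mouse. In the 8 mice of A6 it had 0 CPM in the lowest, 0.420 in the median and 2.15 in the highest, and 6 of the 8 mice lay below every B6 mouse. The log2 fold change was -2.65 (SE 0.61, adjusted p = 0.000976), the largest of the 360 main effects in absolute value, and it was called in every alternative. In the 4 double CSSs that carry the A/J chromosome 6, the highest mouse had 8.13 CPM where chromosome 4 was also A/J, 0.691 with chromosome 5, 2.75 with chromosome 8 and 1.89 with chromosome 10. Low levels were not particular to these strains, since the mean log2 CPM lay below that of B6 in 17 of the 18 CSSs without the A/J chromosome 6 too. Among these, the highest mouse had 2.83 CPM in (B6.A3 x B6.A8)F1, 3.06 in (B6.A17 x B6.A4)F1 and 2.32 in (B6.A17 x B6.A8)F1. None of the 4 interactions of A6 was called for this gene, and their estimates were between 0.96 (SE 1.24) and 1.95 (SE 0.90). At 0 to 31 counts per A6 mouse, the size of the difference is imprecise.

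**Figure D3:**
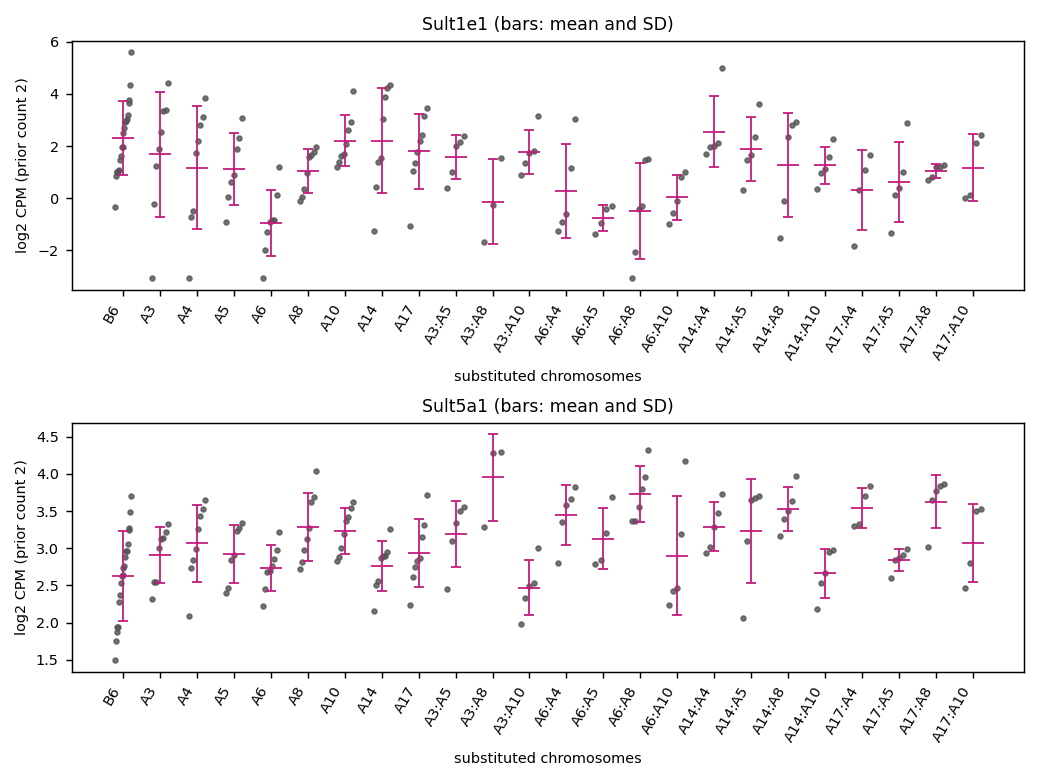
Level of Sult1e1 and of Sult5a1 as log2 CPM with a prior count of 2 in every mouse of B6, the 8 single CSSs and the 15 double CSSs, with the mean and SD of each strain as a cross bar. The mean of Sult1e1 lies below the B6 mean in 22 of the 23 CSSs and is lowest in A6, and that of Sult5a1 lies above the B6 mean in 22 of the 23 and is highest in A3:A8.

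The other sulfotransferases showed changes in both directions in A8 and A14. Sult2a8 (chr7:14410686-14446769, minus strand, mm10) had 374.1 CPM in the lowest, 737 in the median and 1035 in the highest B6 mouse. In A8 it had 840.3, 1104 and 1374 CPM, with 5 of 8 mice above every B6 mouse, and in A14 it had 786, 965 and 1427 CPM, with 3 of 8. The log2 fold change was 0.66 in A8 (SE 0.12, adjusted p = 5.29e-06), 0.66 in A14 (SE 0.11, adjusted p = 2.20e-06) and 0.41 in A17 (SE 0.11, adjusted p = 0.0242). The calls in A8 and A14 held in every alternative, while that in A17 was lost with 10 surrogate variables and with the 75% count filter. Sult1d1 was higher by 0.48 in A8 (SE 0.17, adjusted p = 0.0192) and by 0.55 in A14 (SE 0.15, adjusted p = 0.00476). Both calls were lost with 10 surrogate variables, and that in A8 also with none. Sult1a1 went the other way, with 308 CPM in the lowest, 444 in the median and 558 in the highest B6 mouse and 194, 265 and 343 CPM in A8. In A8, 6 of 8 mice lay below every B6 mouse for Sult1a1, and the log2 fold change was -0.60 (SE 0.12, adjusted p = 8.40e-05), called in every alternative. It was -0.39 in A14 (SE 0.11) and -0.35 in A4 (SE 0.11), and these 2 calls were lost both without surrogate variables and with 10.

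The next question was whether the effects of 2 substitutions add up. Over the 15 crosses, 61 interactions of these genes passed the threshold, against 5.96% of the combinations over all genes, in 35 of the 45 genes and in 8 of the 15 crosses. Of the 61, 23 were positive (background 3.35%) and 38 negative (background 2.61%). In A14:A8, 28 of the 45 genes were called, against 32.4% of all genes. In A6:A8, 15 were called, against 24.8%. The counts were 6 in A14:A10 (background 4.16%), 4 in A17:A8 (8.68%), 4 in A3:A8 (7.56%), 2 in A14:A5 (4.04%), 1 in A14:A4 (4.63%) and 1 in A3:A10 (1.17%). No gene was called in A6:A4 (background 0.542%, 10 with an unadjusted p below 0.05), A17:A4 (1.21%, 7), A6:A10 (0.0527%, 5), A17:A10 (0.113%, 4), A3:A5 (0%, 2), A6:A5 (0%, 6) or A17:A5 (0%, 10), and DESeq2's Wald test called 0 in each of these 7 crosses. The shares in brackets are at an FDR of 0.05 and are not a background for the counts by unadjusted p. An interaction is computed from the same single CSS mice as the main effects, so its sign is not independent of theirs.

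**Figure D4:**
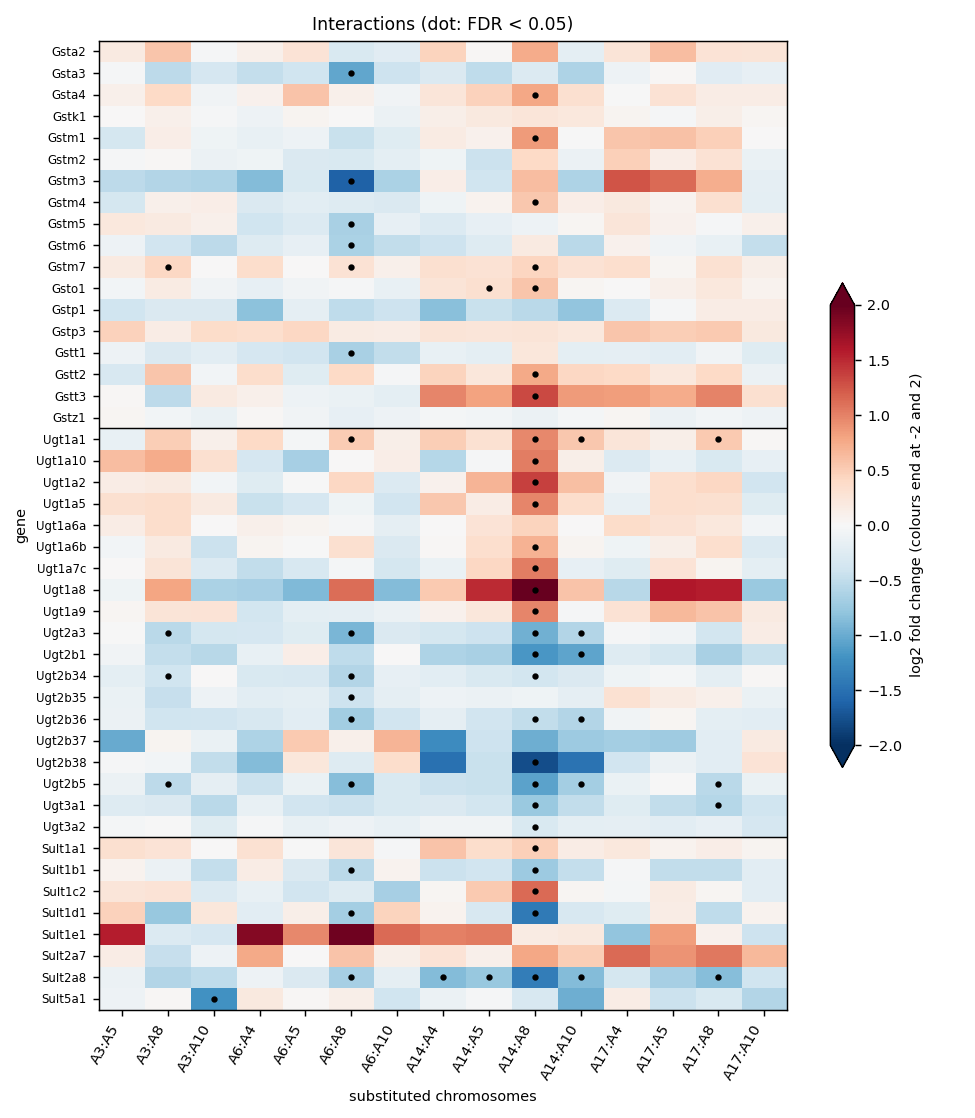
Interaction of each of the 45 genes (rows, in the order Gst, Ugt and Sult) in the 15 double CSSs (columns) on the log2 scale, with red for a level above the sum of both main effects, blue for a level below it (colours end at -2 and 2) and a dot where the FDR was below 0.05. In A14:A8 the Ugt1 rows are red and the Ugt2 rows blue.

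In A14:A8, 17 interactions were positive (background 18.1%) and 11 negative (background 14.3%). By family, 8 of 9 Ugt1 genes were positive, 6 of 8 Ugt2 genes and both Ugt3 genes were negative, and 7 of 18 Gst genes were positive and none negative. Of the 8 Sult genes, 2 were positive and 3 negative. The level of the double CSS (B6.A14 x B6.A8)F1 relative to B6 differed between Ugt genes. Its log2 difference from B6 was 1.07 (SE 0.34) for Ugt1a8, 0.54 (SE 0.18) for Ugt1a9 and 0.27 (SE 0.10) for Ugt1a6b, and for these 3 genes all 5 mice were above the B6 median. For Ugt2b1, Ugt3a1 and Ugt3a2 it was between -0.10 and -0.08, and 0 of 5 mice were above that median. For Ugt2b5 the 5 mice had 386.96, 394.2, 545, 593 and 610.1 CPM, all within the B6 range, against a B6 median of 489.8 CPM. The main effects summed to 1.24 on the log2 scale, the interaction was -1.07 (SE 0.16, adjusted p = 4.65e-08) and the double CSS differed from B6 by 0.17. For Ugt1a1 the 5 mice had 142, 168, 174, 188.02 and 199.7 CPM, also within the B6 range, with summed main effects of -0.94, an interaction of 0.96 (SE 0.17, adjusted p = 1.37e-06) and a difference from B6 of 0.02. Ugt2b38 had the most negative of the called interactions in this cross, -1.77 (SE 0.50, adjusted p = 0.00357). The 5 mice had 7.28, 9.87, 10.1, 13.8 and 16.01 CPM of it, with 1 above the B6 median of 15.6 CPM. With 10 surrogate variables the count fell to 15, and the calls of Ugt1a1, Gstm1 and Gstm7 were lost, and leaving out each mouse of the double CSS in turn left between 24 and 29.

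For Sult2a8 the 5 mice of (B6.A14 x B6.A8)F1 had 470.3, 498, 695, 769.8 and 777 CPM, below the lowest A14 mouse and the lowest A8 mouse. The main effects summed to 1.32, the interaction was -1.38 (SE 0.19, adjusted p = 6.23e-09) and the double CSS differed from B6 by -0.06. Sult1d1 had 267.7, 284.3, 430.1, 435 and 445 CPM in these mice, with an interaction of -1.42 (SE 0.26, adjusted p = 1.10e-05). Sult1a1 and Gstm7 did not come back to the B6 level in full, with log2 differences from B6 of -0.50 (SE 0.13) and -0.31 (SE 0.08) in the double CSS. Their interactions were 0.48 (SE 0.20, adjusted p = 0.0454) and 0.43 (SE 0.12, adjusted p = 0.00284). The call of Sult1a1 was lost under 5 of the 8 other settings and when any of 4 of the 5 mice was left out.

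Gstm1 (chr3:108012255-108017973, minus strand, mm10), the most abundant Gst gene per length, showed another pattern. It was called in no single CSS, with a median of 251 CPM in A14 and 274 CPM in A8 against 289.7 in B6, and both main effects summed to -0.03 on the log2 scale. The 5 mice of (B6.A14 x B6.A8)F1 had 409.8, 456, 522, 523 and 526 CPM, all above the B6 median, and 3 of them above every B6 mouse. The interaction was 0.85 (SE 0.23, adjusted p = 0.00193), and the double CSS differed from B6 by 0.82 (SE 0.15). With 10 surrogate variables the interaction was 0.52 and was not called.

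**Figure D5:**
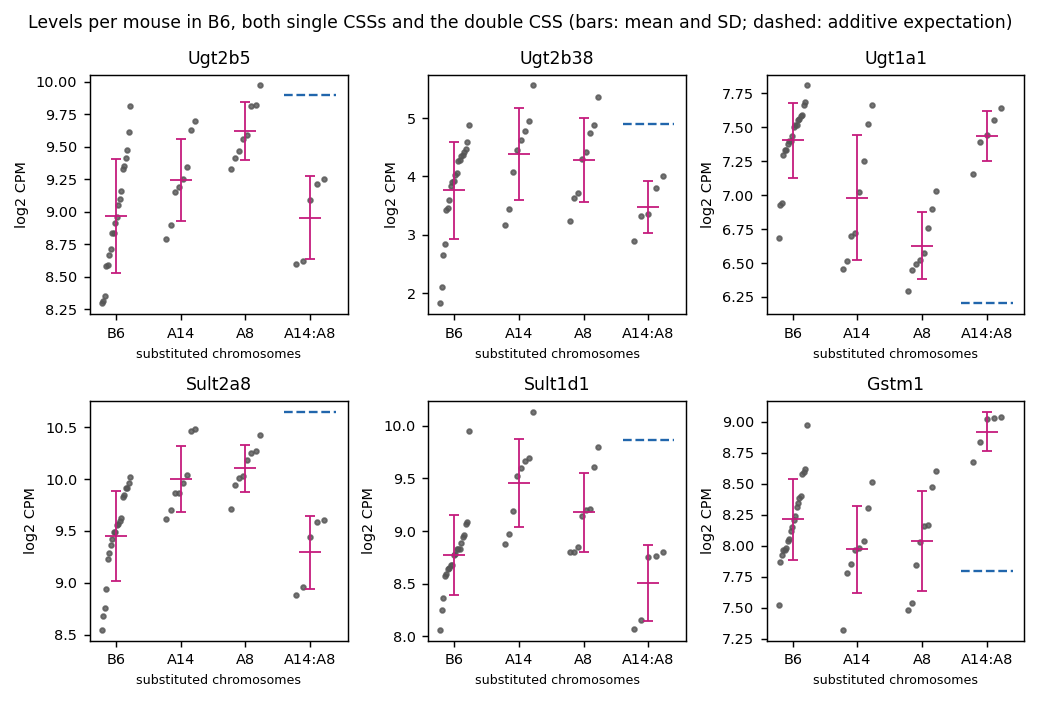
Level of 6 genes as log2 CPM with a prior count of 2 in each mouse of B6 (n = 20), A14 and A8 (n = 8 each) and the double CSS A14:A8 (n = 5), with mean and SD as a cross bar and, as a dashed line, the level at which the differences of both single CSS means from B6 would add up. The double CSS lies below that line for Ugt2b5, Ugt2b38, Sult2a8 and Sult1d1, and above it for Ugt1a1 and Gstm1.

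In A6:A8, 2 of the 15 called interactions were positive (background 13.4%) and 13 negative (background 11.4%). They comprised 5 Ugt2 genes, 5 Gst genes and 3 Sult genes that were negative, and Gstm7 and Ugt1a1 that were positive. Gsta3, which was higher in both A6 and A8, had 270.001, 380.1, 380.1, 392, 418.8 and 525 CPM in the 6 mice of (B6.A6 x B6.A8)F1, of which 1 was above the B6 median. Its main effects summed to 0.83, the interaction was -1.04 (SE 0.18, adjusted p = 9.10e-06) and the double CSS differed from B6 by -0.21. Ugt2a3 had 216, 220.4, 230.2, 289.9, 291 and 333 CPM, an interaction of -0.91 (SE 0.15, adjusted p = 4.00e-06) and a difference from B6 of 0.07. The interaction was -0.84 (SE 0.15) for Ugt2b5, -0.66 (SE 0.18) for Sult2a8, -0.68 (SE 0.25) for Sult1d1 and 0.51 (SE 0.16) for Ugt1a1. Sult1d1 in the double CSS had 167 CPM in the lowest, 303 in the median and 326 in the highest of 6 mice, against medians of 294 CPM in A6 and 578 CPM in A8. With 10 surrogate variables 5 genes were called in A6:A8, Gsta3 and Ugt2a3 among them, and the calls of Ugt2b5, Sult2a8, Sult1d1 and Ugt1a1 were lost. That of Sult1d1 was also lost without surrogate variables and without replicate 1 or 4 of the double CSS.

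Sult2a8 had a called interaction in 6 crosses, more than any other of the 45 genes. Beside A14:A8 and A6:A8 these were A14:A4 with -0.87 (SE 0.19, adjusted p = 0.00396), A14:A5 with -0.75 (SE 0.19, adjusted p = 0.0127), A14:A10 with -0.86 (SE 0.20, adjusted p = 0.00759) and A17:A8 with -0.85 (SE 0.19, adjusted p = 0.00271). In (B6.A14 x B6.A4)F1, levels in the 5 mice were 398, 607, 656, 704 and 729 CPM, of which the lowest was the mouse without Y-linked counts, and the interaction was -0.82 without that mouse and still called. The 5 mice of (B6.A14 x B6.A5)F1 had 638, 658, 912, 1022 and 1173 CPM. Of these, 3 lay above the B6 median and 1 above every B6 mouse. Those of (B6.A14 x B6.A10)F1 had 698, 716, 720.1, 817 and 821 CPM and those of (B6.A17 x B6.A8)F1 had 629, 692, 766, 801 and 804.5 CPM. These 4 estimates share the B6 mice, and 3 of them the A14 mice. With 10 surrogate variables the calls in A14:A10 and A17:A8 were lost, and without surrogate variables those in A14:A10 (-0.48) and A14:A5 (-0.51). The call in A14:A5 was also lost without replicate 1 of the double CSS.

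Calls in the remaining crosses were few. In A14:A10, Ugt2b1 had 406.8, 547.9, 562, 591 and 697 CPM in the double CSS and an interaction of -1.05 (SE 0.24, adjusted p = 0.00806). This was -0.45 without surrogate variables and -0.87 with 10 of them, and it was called in neither. In A17:A8, Ugt3a1 had 55.4, 70.4, 73.7, 79.5 and 82.7 CPM and an interaction of -0.56 (SE 0.19, adjusted p = 0.0405), a call that was lost with 10 surrogate variables, with the 75% count filter and without replicate 2, 3 or 4 of this cross. In A3:A8, the 3 mice had 247, 356 and 510.4 CPM of Ugt2a3 and 515, 613 and 1005 CPM of Ugt2b5, with interactions of -0.54 (SE 0.18, adjusted p = 0.0444) and -0.52 (SE 0.17, adjusted p = 0.0487). Leaving out replicate 1 or replicate 3 of this cross left 0 calls in place of 4. In A14:A5, Gsto1 had 102.8, 113, 118, 119.5 and 119.8 CPM and an interaction of 0.32 (SE 0.10, adjusted p = 0.0367), and without replicate 1 of this cross 0 genes were called. The call of Gsto1 was also lost with 10 surrogate variables and without replicate 4 or 5. In A3:A10, Sult5a1 had 3.84, 4.93, 5.51, 5.65 and 7.92 CPM, 1 of 5 mice above the B6 median, and an interaction of -1.22 (SE 0.30, adjusted p = 0.0192), which was not called without replicate 1 or without surrogate variables. In A14:A4, Ugt2b38 was at 0.529 CPM in the mouse without Y-linked counts and between 17.46 and 28.5 CPM in the other 4, and its interaction was not called.

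Within B6, where all mice have the same genotype, 9 pairs of paralogs were compared over the 20 mice. Ugt2b1 and Ugt2b36 were positively related, with Pearson's r of 0.82 (permutation p = 6e-05, adjusted p = 0.000270) and Spearman's rho of 0.87 (permutation p = 1e-05, the smallest that 100000 permutations give). Ugt3a2 and Ugt3a1 were positively related too, with r of 0.89 (permutation p = 1e-05, adjusted p = 9e-05) and rho of 0.84 (permutation p = 1e-05). Without the 2 mice farthest from the median of the first gene, r was 0.81 for the Ugt2 pair and 0.79 for the Ugt3 pair. Sult1d1 and Sult1a1 had r of 0.52 (permutation p = 0.0117, adjusted p = 0.0351) and rho of 0.54 (permutation p = 0.0143). Their r was 0.36 without 2 mice, which was not past the threshold. Leaving out the farthest mice also narrows the range and lowers n, so whether the relation rests on them cannot be told. The other 6 pairs, Gsta3 and Gsta4, Gstm1 and Gstm7, Gstt1 and Gstt2, Gstp1 and Gstp3, Ugt1a1 and Ugt1a9, and Sult2a8 and Sult2a7, had r between -0.40 and 0.05 and were not past the threshold. Ugt2b1 shares no 50-base window with Ugt2b36, whereas Ugt3a1 and Ugt3a2 share windows with each other (90.6% unique in each), and the part of shared reads in their relation was not tested.

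Genes that supply or follow these enzymes were read from lists, beside shares over all genes of 29.6% called in A8 (12.9% higher and 16.7% lower), 22.5% in A14 (9.98% and 12.6%) and 32.4% in A14:A8 (18.1% positive and 14.3% negative). Of 14 genes of cofactor supply (UDP-glucuronic acid, PAPS and glutathione), 6 were called in A8, 3 higher and 3 lower, and 5 in A14, 1 higher and 4 lower. Papss2, a synthase of PAPS, was lower in both, by -0.46 in A8 (SE 0.09) and -0.27 in A14 (SE 0.08), and Ugdh, which makes UDP-glucuronic acid, was higher in A8 by 0.37 (SE 0.11). In A14:A8, 5 of the 14 were called, and Papss2 had an interaction of 0.82 (SE 0.14). Of 16 genes of conjugate transport and mercapturate steps, 10 were called in A8, 5 in each direction, 5 in A14 and 9 in A14:A8. Slco1a1, an uptake transporter of organic anions, had 0.97 in A8 (SE 0.19), 0.87 in A14 (SE 0.18) and an interaction of -2.07 (SE 0.31). Slco1a1 was also called higher in A4 (0.50) and A17 (0.63). Of 14 other conjugating and detoxifying enzymes, 4 were called in A8, 2 in A14 and 5 in A14:A8, shares near or below those over all genes. Of 16 regulators, 7 were called in A8, 1 higher and 6 lower, and 6 in A14, 1 higher and 5 lower. The receptor Nr1i2 (PXR), which binds foreign compounds, was lower by -0.51 in A8 (SE 0.09) and by -0.45 in A14 (SE 0.08). This was not particular to these strains, since Nr1i2 was also called lower in A3 (-0.33), A4 (-0.35), A6 (-0.27), A10 (-0.36) and A17 (-0.33). Nfe2l2, which encodes NRF2, was lower in A14 by -0.30 (SE 0.08).

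Sex-biased liver genes moved in the same strains, and their counts are to be read beside the shares over all genes called higher and lower, 12.9% and 16.7% in A8, 9.98% and 12.6% in A14, and 18.1% and 14.3% in A14:A8. Of 13 male-biased genes, 7 were higher and none lower in A8, and the same counts held in A14, and of 8 female-biased genes in the table, 5 were lower and 1 higher in A8 and 2 were lower in A14. In A14:A8, 8 of the 13 male-biased genes had negative and 5 of the 8 female-biased genes positive interactions. Their part in the levels of the conjugating enzymes was not tested. Slco1a1 is on the male-biased list and on that of conjugate transport. Cux2 is on the female-biased list and on that of the regulators, so both genes count in 2 lists. Of the 6 Kupffer cell markers, 1 was called in A8, 3 in A14 and 3 in A14:A8. Marco was lower in A8 (-1.18) and in A14 (-0.88), while Vsig4 (0.28) and Clec4f (0.26) were higher in A14. The summed level of the Kupffer cell markers was between 294 and 526.6 CPM in B6, between 280.3 and 598 in A8, between 322 and 510.8 in A14 and between 321 and 390.2 in (B6.A14 x B6.A8)F1. Markers of other cell types were called in A8 too. Clec4g (endothelial, 0.54), Lrat (stellate, 0.38) and Sox9 (cholangiocyte, 0.53) were higher, and Stab2 (endothelial, -0.14) and Col3a1 (stellate, -0.66) were lower. None of the 3 lymphocyte markers in the table was called in any of these 3 effects by edgeR at an FDR of 0.05.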

How the data were processed

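Total liver RNA of 154 mice was sequenced (stranded library, single-end). Alignment by the authors was to mm10 with TopHat2, after which they aligned the rest to an A/J version of the genome, counted reads per gene of GENCODE vM7 with HTSeq, and removed low genes and 3 outlier samples. The deposited values are raw counts per gene, with a total per mouse between 4638701 and 30465477 (median 16116424). Strand use in counting is not given in the sources used here.

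All 13289 genes were fitted with edgeR 4.0.16 in R 4.3.3 (TMM normalization, 8 main effects, 15 interactions, 5 surrogate variables from sva 3.50.0, quasi-likelihood F-test). P-values were adjusted by Benjamini-Hochberg within each effect, separately for genes on and off the substituted chromosomes, at an FDR of 0.05, and the joint tests were adjusted over all genes. The 47 genes without a position in GENCODE vM21 counted as off. CPM are edgeR's counts scaled by TMM-normalized library size, log2 CPM has a prior count of 2, and SE is the Wald SE. Pairs of genes were tested by 100000 two-sided permutations of the B6 mice. Alternatives were 0 or 10 surrogate variables, DESeq2 1.42.0 size factors or Wald test, the newer quasi-likelihood method, a filter of 15 counts in 75% of mice, another adjustment, another prior count, and mice left out. The test was also run on simulated counts with changes of 1 (A8) and 1.5 (A14:A8) log2 units. These had no hidden variation and were fitted without surrogate variables, so the model with 5 of them was not tested in this way.

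The genes, lists and tests were chosen with earlier results of these data known. Named were the genes with a called local effect, the 3 largest called changes in each single CSS and the 2 largest in each cross (average log2 CPM of at least 2), the 3 highest per family in B6, the paralog pairs, and up to 3 genes per list. Other values given for genes of the families were chosen after they were seen.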

Additional observations from a re-analysis of the deposited data

Results flagged for a closer look

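In groups of 4 to 10 mice, 71 levels of named genes were tested for a mouse far from the others, and 1 stood apart, where chance flags about 1 in 20 groups. This was Ugt2b36 in A3, with 808.9 CPM in 1 mouse and 470.0 to 596.4 CPM in the other 7.

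The other 24 results are called interactions, in which the effect of 1 substitution differed with the presence of another. In A14:A8 the values on the log2 scale were -1.77 for Ugt2b38, -1.42 for Sult1d1, -1.38 for Sult2a8, -1.07 for Ugt2b5, 0.96 for Ugt1a1, 0.85 for Gstm1, 0.48 for Sult1a1 and 0.43 for Gstm7. In A6:A8 they were -1.04 for Gsta3, -0.91 for Ugt2a3, -0.84 for Ugt2b5, -0.68 for Sult1d1, -0.66 for Sult2a8 and 0.51 for Ugt1a1. In A14:A10 they were -1.05 for Ugt2b1 and -0.86 for Sult2a8, and in A17:A8 -0.85 for Sult2a8 and -0.56 for Ugt3a1. In A14:A5 they were -0.75 for Sult2a8 and 0.32 for Gsto1, and in A14:A4 -0.87 for Sult2a8. In A3:A8 they were -0.54 for Ugt2a3 and -0.52 for Ugt2b5, and in A3:A10 -1.22 for Sult5a1. All of them share the B6 mice.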

How the results depend on the processing

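The number of surrogate variables changed the counts most. With 10 in place of 5, the genes called were 33 main effects (3 local and 30 distant, in place of 68), 24 interactions in place of 61 and 11 joint interactions in place of 25. Over all 13289 genes, 10 gave 4519 main effects in place of 11765 and 2443 interactions in place of 11879. None gave 14252 main effects and 17691 interactions over all genes. By effect, 10 surrogate variables gave 1 in A4, 1 in A5, 4 in A6, 9 in A8, 9 in A14, 0 in A17, 0 in A3:A8, 2 in A3:A10, 5 in A6:A8, 1 in A14:A5, 15 in A14:A8, 0 in A14:A10 and 0 in A17:A8. With none, they were 0 in A3, 12 in A14, 5 in A17, 1 in A3:A8, 0 in A3:A10, 3 in A14:A4, 2 in A14:A10 and 10 in A17:A8, and Ugt2b36 in A10 reversed to -0.0395. The filter of 15 counts in 75% of mice gave 4 local calls, 2 in A5, 1 in A17, 1 in A3:A8, 2 in A3:A10, 3 in A14:A4, 1 in A17:A4 and 2 in A17:A8. DESeq2 size factors gave 1 in A3:A8. The r of Sult1d1 and Sult1a1 was 0.36 without 2 mice. The cause was not tested. Of 73 named results, 21 kept direction and call in every alternative run.

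Leaving out each mouse of a double CSS gave 0 to 4 calls in A3:A8, 1 to 5 in A17:A8 (1 without replicate 3 or 4), 0 to 3 in A14:A5, 13 to 16 in A6:A8, 4 to 6 in A14:A10, 0 to 1 in A3:A10, A6:A4 and A6:A10, 1 to 5 in A14:A4 (5 without replicate 1 or 2), 24 to 29 in A14:A8 and 0 in the other 5. It re-tested each cross's own interaction, with surrogate variables and dispersions held. It was not run for single CSS mice, main effects or joint tests, and DESeq2's Wald test was not run for joint tests. No paired analysis was possible because replicate numbers only name mice in accession order.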
